A study of Mus musculus with 20 samples.

Results

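The 4 Pfkfb genes of the mouse, Pfkfb1, Pfkfb2, Pfkfb3 and Pfkfb4, were followed through a ChIP-seq series on Suz12, a core subunit of Polycomb repressive complex 2. They make up the whole gene family and 4 of the 21631 protein-coding genes of the annotation. The family was chosen on measured values of these libraries, because Pfkfb3 is a site where the 2 transcription inhibitors of the study gave different Suz12 counts. A Suz12 region stands for all peaks that overlap by at least 1 bp among the 8 deposited Suz12 peak lists, and a region was given to a gene when it lay inside it or within 1 kb of an annotated end. By that rule Pfkfb3 had 2 regions, Pfkfb2 had 2, and Pfkfb1 and Pfkfb4 had 0, which makes 4 of 11943 regions.

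The cells were wild-type E14 mouse embryonic stem cells kept in serum medium with leukemia inhibitory factor. The 4 groups used had 2 Suz12 libraries each, namely DRB at 100 µM for 12 h, its own DRB 0 h sample, triptolide at 10 µM for 9 h, and its own triptolide 0 h sample. All 4 groups share the genotype, the medium and the antibody. DRB blocks the kinases that release RNA polymerase II into elongation, and triptolide blocks the helicase that opens promoters for initiation. The inhibitors were given at unlike doses and for unlike times, and each had its own untreated samples, so a difference between them cannot be told apart from dose, time or experiment.

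The enzymes encoded by these genes both make and break fructose bisphosphate in the form that activates phosphofructokinase, and so set the pace of glycolysis against gluconeogenesis. Pfkfb1 is the liver and muscle form, Pfkfb2 the heart form that insulin signalling activates, Pfkfb3 the inducible form with the strongest kinase activity, and Pfkfb4 a form abundant in testis; Pfkfb3 and Pfkfb4 are known to be induced by hypoxia. Suz12 and its complex methylate lysine 27 of histone H3 at CpG-rich promoters of genes that are silent or little transcribed in embryonic stem cells.

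Because Suz12 in these cells gathers at CpG-rich starts, the promoters of the family are shown first. Each runs 5′ to 3′ on the strand of the gene, from 250 bases before to 50 bases after a RefSeq start on GRCm38.p6, with every CG in capitals. The first 3 lay under Suz12 peaks and the last 2 did not.
Pfkfb3, upstream start, chr2:11553880-11554179, minus strand: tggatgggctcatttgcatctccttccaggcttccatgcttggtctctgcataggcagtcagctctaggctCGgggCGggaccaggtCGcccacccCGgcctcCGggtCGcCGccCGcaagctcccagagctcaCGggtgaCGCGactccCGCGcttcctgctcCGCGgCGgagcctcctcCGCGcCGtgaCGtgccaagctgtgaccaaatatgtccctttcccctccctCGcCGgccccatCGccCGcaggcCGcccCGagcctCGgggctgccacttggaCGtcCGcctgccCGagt
Pfkfb3, inner start, chr2:11502041-11502340, minus strand: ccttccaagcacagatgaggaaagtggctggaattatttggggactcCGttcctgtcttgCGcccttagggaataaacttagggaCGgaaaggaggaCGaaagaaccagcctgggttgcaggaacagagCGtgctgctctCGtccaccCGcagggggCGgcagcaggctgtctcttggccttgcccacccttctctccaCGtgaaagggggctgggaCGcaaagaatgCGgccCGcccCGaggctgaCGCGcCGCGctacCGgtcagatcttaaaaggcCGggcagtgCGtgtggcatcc
Pfkfb2, chr1:130715772-130716071, minus strand: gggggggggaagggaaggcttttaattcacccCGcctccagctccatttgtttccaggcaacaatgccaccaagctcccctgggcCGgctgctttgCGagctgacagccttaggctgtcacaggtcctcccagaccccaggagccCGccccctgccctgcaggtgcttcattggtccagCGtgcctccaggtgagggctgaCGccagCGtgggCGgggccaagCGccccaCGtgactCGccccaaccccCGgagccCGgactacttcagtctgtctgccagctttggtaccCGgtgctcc
Pfkfb4, chr9:108991652-108991951, plus strand: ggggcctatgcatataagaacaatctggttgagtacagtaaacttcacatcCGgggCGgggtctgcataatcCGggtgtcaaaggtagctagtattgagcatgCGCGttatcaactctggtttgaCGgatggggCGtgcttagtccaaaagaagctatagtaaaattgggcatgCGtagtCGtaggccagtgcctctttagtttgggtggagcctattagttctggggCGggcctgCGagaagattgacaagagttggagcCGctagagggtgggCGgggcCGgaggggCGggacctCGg
Pfkfb1, chrX:150587993-150588292, plus strand: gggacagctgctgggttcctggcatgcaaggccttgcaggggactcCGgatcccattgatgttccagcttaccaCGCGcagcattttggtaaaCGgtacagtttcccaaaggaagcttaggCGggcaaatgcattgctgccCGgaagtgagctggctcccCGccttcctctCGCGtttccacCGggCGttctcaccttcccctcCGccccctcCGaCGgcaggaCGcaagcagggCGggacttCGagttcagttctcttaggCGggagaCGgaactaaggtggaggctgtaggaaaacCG

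The upstream Pfkfb3 start was the richest of them, with 30 CG in 300 bases and an observed to expected CpG ratio of 0.851. The inner Pfkfb3 start, 51.8 kb further down the gene, held 20 CG at a ratio of 0.720, and the Pfkfb2 start held 14 CG at a ratio of 0.434. The unbound Pfkfb4 start had 16 CG at 0.801, and the unbound Pfkfb1 start had 20 CG at 0.733. The Pfkfb2 start counts as bound through 2 treated and 0 untreated lists, and both Pfkfb3 starts through lists of either kind. The numbers of CG in bound and unbound starts overlapped, also without Pfkfb2, at 20 CG in the inner Pfkfb3 and the Pfkfb1 start. The other 3 annotated Pfkfb1 starts held 1, 1 and 2 CG. The other 2 Pfkfb2 starts with a promoter window held 1 and 8 CG. A peak of 0 lists lay in the window of the first, and a peak of 1 treated list in that of the second. The annotated upper end of Pfkfb2, chr1:130729253, where this minus-strand gene begins, had no window. Promoters on chromosomes with a region were split by class. The median was 22 CG where a region had a peak in all 8 lists (3228 promoters) and 25 CG where only the 4 treated lists had one (840 promoters). It was 24 CG at any other region (4010 promoters) and 5 CG where there was no region (24507 promoters).

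Short motifs were searched on both strands of these windows, with positions counted from the start. ACGTG, 1 form of the core of the hypoxia response element, was found at -60 in the upstream Pfkfb3 promoter and in 19.6% of all 32817 promoters. GCGTG, the other form searched, was absent there and is present in 32.4% of all promoters. It was found in the inner Pfkfb3 (-122 and 37), Pfkfb2 (-72 and -44), Pfkfb4 (-117) and Pfkfb1 (-178) windows. The E-box CACGTG, which holds ACGTG on both strands, was found at -53 in the inner Pfkfb3 promoter and at -22 in the Pfkfb2 promoter, against 7.15% of all promoters. GGGCGG, the core of the GC box, was found in each of the 5 windows printed and in 35.6% of all promoters. These matches describe the letters alone.

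Between 1323926 and 7340023 reads per library fell on regions, and the lists held 5116 to 10929 peaks. The DRB libraries are called shallower and deeper by these totals (2416530 and 7340023 reads at 12 h, 1323926 and 4396744 at 0 h), since their count columns carry no replicate number. The spread between replicates was wider than counting allows, with chi-square values per degree of freedom from 2.47 in the triptolide 9 h pair to 8.65 in the DRB 12 h pair. The labels call them biological replicates, with no word on separate cultures. As a check of the cell label, Pou5f1, Nanog and Zfp42, genes active in embryonic stem cells, had a peak in 0 lists, while Sox2 had one in the 4 treated lists and in 0 untreated lists. The silent lineage regulators Hoxa10, Pax6, Gata4 and Tbx1 had a peak in all 4 treated and all 4 untreated lists. In a pool of cells, fewer cells with Suz12 at a site and less Suz12 per cell cannot be told apart.

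Pfkfb3 had a Suz12 peak at or beside each of its 2 starts in every list. The region at the upstream start spans chr2:11552219-11554828 and covers the start itself in all 8 lists. The inner region spans chr2:11501049-11504694, lies within the gene around its inner start, and also overlaps the lncRNA gene Gm52500. A peak covered the inner start itself in 7 of 8 lists, since the peak of DRB 0 h replicate 1 ended upstream of it. At the upstream start, the peaks were 931 and 1360 bp wide in the DRB 12 h lists, against 1606 and 1717 bp at DRB 0 h. They were 2055 and 2188 bp wide at triptolide 9 h, against 1920 and 2601 bp at triptolide 0 h. The DRB 12 h lists thus held the narrowest pair. The part of library depth in these widths was not tested.

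**Figure D1:**
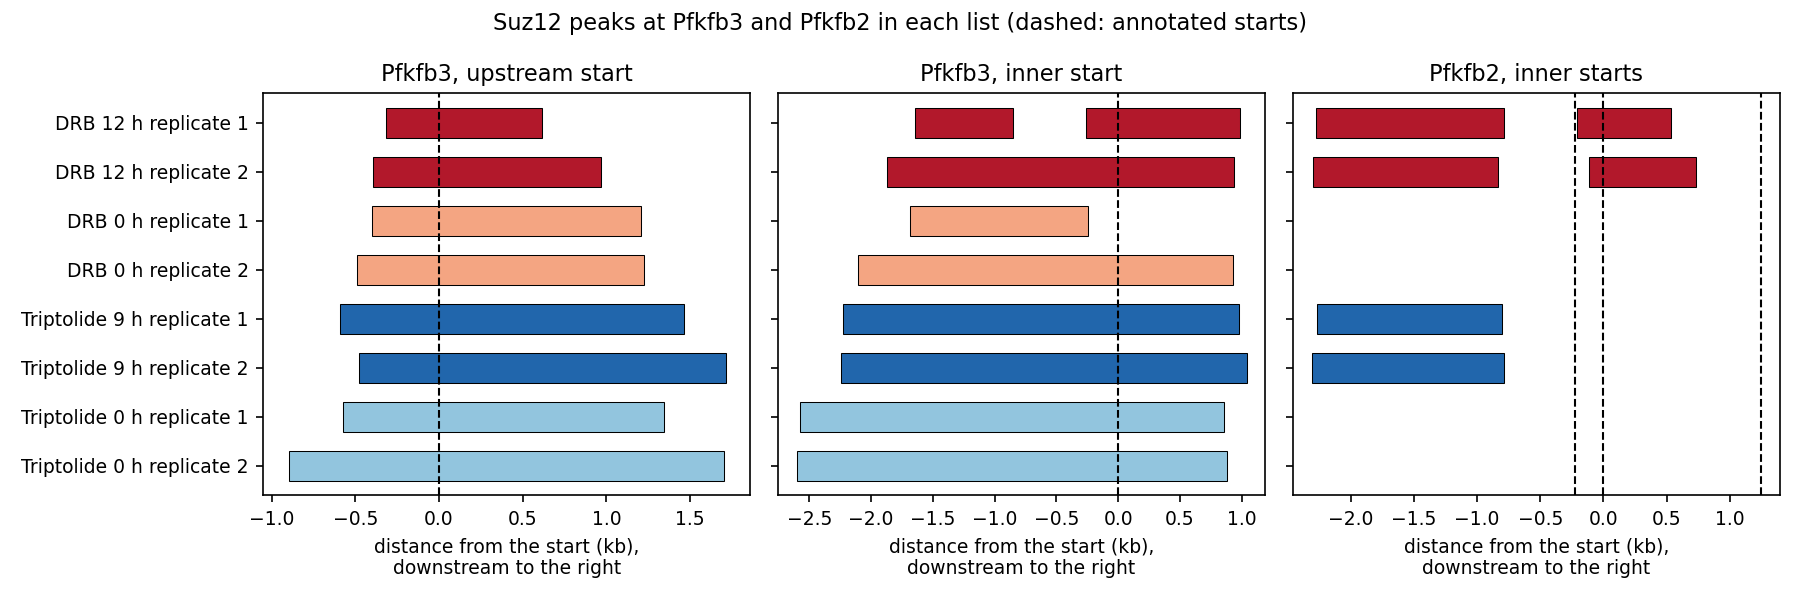
Extent of the deposited Suz12 peaks at the Pfkfb3 and Pfkfb2 starts, 1 row for each list, with distance from an annotated start in kb on the x axis and dashed lines at annotated starts. The upstream Pfkfb3 start is covered in all 8 rows, with the narrowest bars in the 2 DRB 12 h lists, while the Pfkfb2 peaks stand in treated lists only.

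Counts over the upstream start set Pfkfb3 apart. In CPM, which here means reads per 1e6 reads that fell on regions, scaled by TMM, this region had 39.2 and 54.8 in the DRB 12 h libraries, against 166.8 and 167.3 at DRB 0 h. It had 159.1 and 158.0 at triptolide 9 h, against 178.1 and 187.0 at triptolide 0 h. Both DRB 12 h libraries lay far below the other 6, which spanned a narrow range. The log2 change was -1.79 ± 0.16 (SE) under DRB, a fold of 0.289, and -0.20 ± 0.15 under triptolide, a fold of 0.869. These changes and their difference of -1.59 ± 0.22 chose the gene, so they are given without a test.

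The inner region, counted over its widest peak, moved less. Its CPM was 65.2 and 87.1 at DRB 12 h, against 136.4 and 152.9 at DRB 0 h. It was 165.4 and 169.2 at triptolide 9 h, against 169.7 and 160.6 at triptolide 0 h. The DRB groups did not overlap, while the triptolide groups did, which with 2 libraries a group shows little by itself. How many of all regions lack overlap was not counted, and the gene was chosen on such counts. The log2 change was -0.91 ± 0.15 (SE) under DRB and 0.02 ± 0.15 under triptolide, with a difference of -0.93 ± 0.21.

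**Figure D2:**
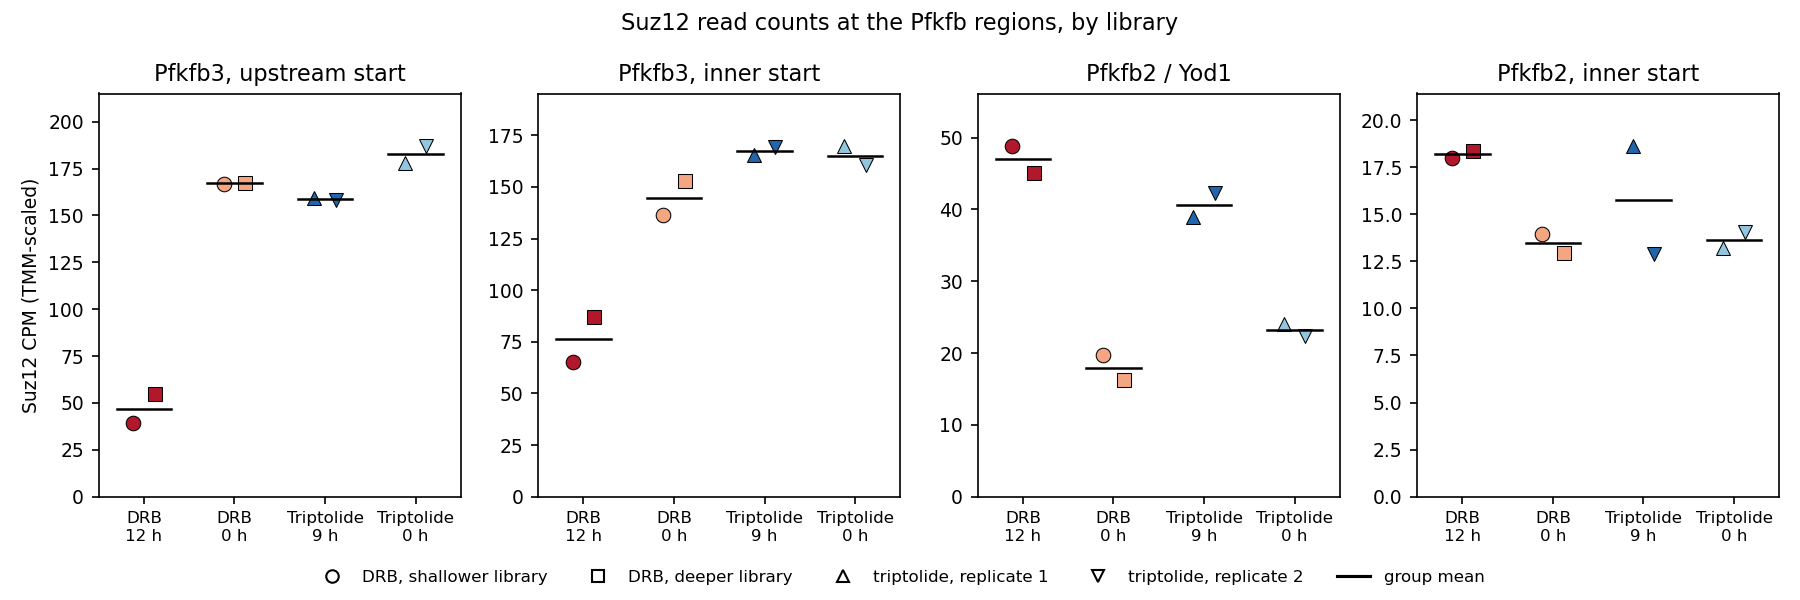
Suz12 CPM on a linear axis from 0 at the 4 Pfkfb regions, 1 symbol for each library and a bar at each group mean. At the upstream Pfkfb3 start the DRB 12 h libraries sit at 39.2 and 54.8 and the other 6 between 158.0 and 187.0, while at the Pfkfb2 region shared with Yod1 the treated libraries lie above the untreated ones for both inhibitors.

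Among all 11943 regions, 6 had a lower DRB change than the upstream start of Pfkfb3. Among the 4281 regions with a peak in all 8 lists, the upstream start had the lowest DRB change and the lowest difference between inhibitors. Those 4281 regions had a median DRB change of -0.35, with the 5th to 95th percentile from -0.88 to 0.58, and a median difference of 0.06, from -0.28 to 0.32. The inner region stood 6th lowest of the 4281 in its difference. These ranks restate the values on which the gene was chosen, so they are no independent result. Neither Pfkfb3 region was unusual in its level, since their means over the 8 libraries, 138.8 CPM upstream and 138.3 CPM inside, stood at the 55.2 percentile of those regions.

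The difference between inhibitors reached an adjusted p under 0.05 at 2 of 11943 regions (0.0167%), among them the upstream start of Pfkfb3, and by this threshold the gene entered. The number of such regions was 3 by DESeq2, 3 and 7 without the shallower or the deeper DRB 12 h library, and 0 without any 1 of the other 6 libraries. Inside the threshold, Pfkfb3 had a difference of -1.59 ± 0.22. Next in rank by p, and not called, stood Lmln with -1.68 ± 0.29 (edgeR adjusted p = 0.26). At Lmln, which encodes a peptidase, the DRB change was 0.30 ± 0.21 and the triptolide change 1.98 ± 0.20. Its difference came through higher counts under triptolide, and that of Pfkfb3 through lower counts under DRB.

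**Figure D3:**
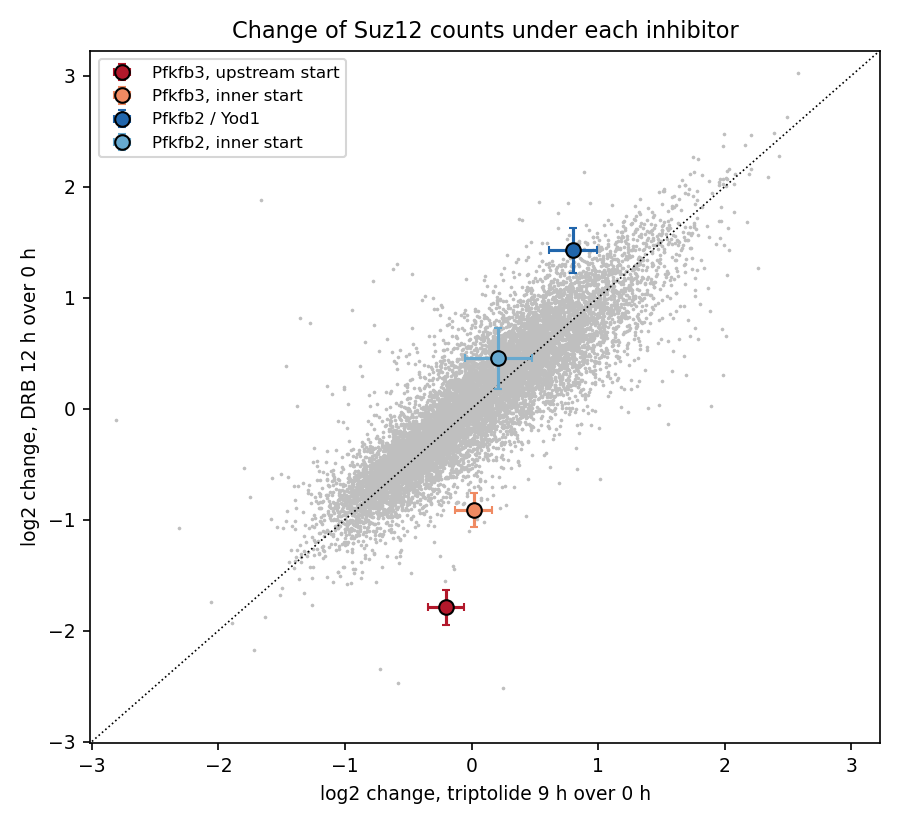
Log2 change of Suz12 counts under DRB (12 h over 0 h, y axis) against that under triptolide (9 h over 0 h, x axis) for 11943 regions in grey and the 4 Pfkfb regions in colour with SE bars. The dotted line marks equal change; the upstream Pfkfb3 start lies below it, with -1.79 against -0.20.

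The mean of both inhibitor changes at Pfkfb3 is built from the same changes, so it too is given without a test. At the upstream start it was -0.997 ± 0.108 (SE), a fold of 0.501, and at the inner region it was -0.45 ± 0.11, a fold of 0.733. The DRB change made up most of it at both, beside triptolide changes of -0.20 and 0.02. Over the alternatives run the upstream value lay between -1.15 and -0.59. The inner value was -0.08 when libraries were scaled to the regions with a peak in all 8 lists, -0.25 when scaled to the sum of all region counts, and -0.05, -0.07 and -0.12 over the peaks of DRB 0 h replicate 2 and triptolide 0 h replicates 1 and 2, each fitted in its own list.

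Scaling also decides the sign under triptolide. The median log2 change of all regions, averaged over both inhibitors, was 0.05 with TMM, 0.25 with scaling to the sum of counts and 0.41 with scaling to the regions of all 8 lists. The calls split into 3339 higher and 3451 lower with TMM, 4654 and 2238 with the sum, and 5871 and 1275 with the regions of all 8 lists. The triptolide change at the upstream Pfkfb3 start was -0.20, 0.03 and 0.20 under these 3 scalings, and that of the inner region was 0.02, 0.25 and 0.42. The DRB change at the upstream start was -1.79, -1.62 and -1.46. Its difference between inhibitors hardly moved, at -1.59, -1.65 and -1.65.

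The share of Pfkfb3 reads at the upstream start needs no scaling between libraries, since both regions are counted in the same library. It is built from the counts that chose the gene, so a lower share under DRB is a description and no independent result. It was 37.5% and 38.6% in the shallower and deeper DRB 12 h libraries, against 55.0% and 52.2% at DRB 0 h. The exact binomial 95% intervals were 31.7 to 43.7% and 35.8 to 41.5% at DRB 12 h, against 49.8 to 60.2% and 49.5 to 54.9% at DRB 0 h, and they cover counting error only. At triptolide 9 h the share was 49.0% and 48.3%, against 51.2% and 53.8% at triptolide 0 h. The intervals were 46.5 to 51.6% and 45.8 to 50.8% at triptolide 9 h, against 48.3 to 54.0% and 50.6 to 57.0% at triptolide 0 h. In both arms the treated libraries were lower than the untreated ones, by more under DRB. Under triptolide the intervals of treated and untreated libraries overlapped, and under DRB they did not. As ratios of upstream to inner reads, DRB 12 h gave 0.601 and 0.629, against 1.22 and 1.09 at DRB 0 h.

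**Figure D4:**
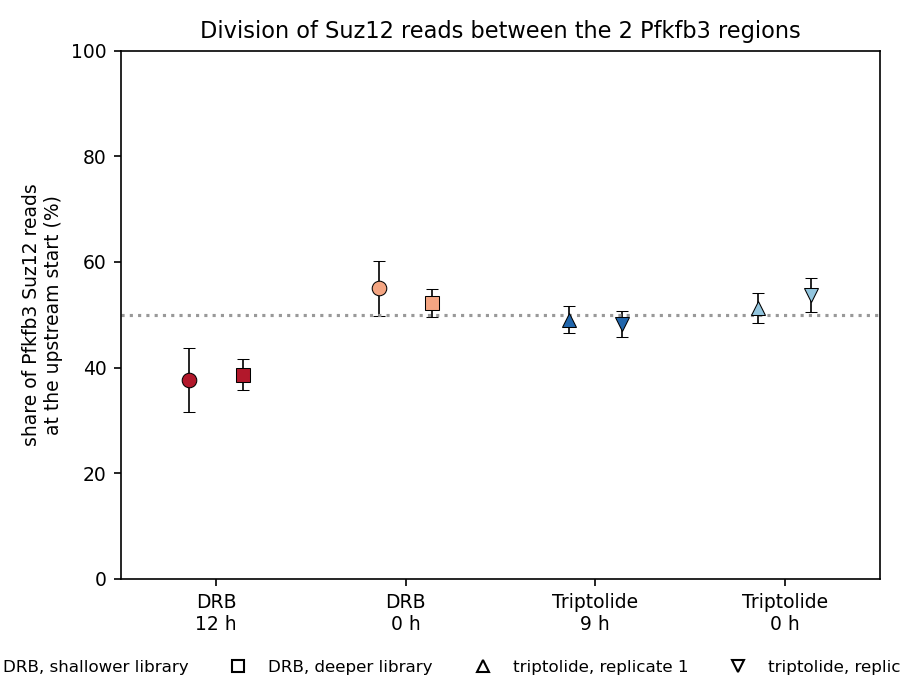
Share of the Suz12 reads of Pfkfb3 that fell on the region at the upstream start, in percent, 1 symbol for each library with exact binomial 95% intervals of the counting error. The DRB 12 h libraries lie at 37.5% and 38.6%, and the other 6 between 48.3% and 55.0%. These shares are built from the counts that chose the gene.

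Within the inner region the counts did not move as 1 block. The list of DRB 12 h replicate 1 divides it into a peak over the start, chr2:11501101-11502351, and a peak upstream of it, chr2:11502945-11503732, which allowed both to be counted in all libraries. The peak over the inner start had 33.2 and 39.7 CPM at DRB 12 h, against 31.2 and 47.5 at DRB 0 h, so the DRB groups overlapped. It had 63.3 and 70.1 CPM at triptolide 9 h, against 42.1 and 44.0 at triptolide 0 h, with both treated libraries higher.

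The peak just upstream showed the pattern of the far upstream start. It had 22.8 and 24.7 CPM at DRB 12 h, against 69.9 and 57.2 at DRB 0 h, and 56.3 and 57.0 CPM at triptolide 9 h, against 60.2 and 63.9 at triptolide 0 h. Only the DRB 12 h libraries were far below the rest. Fitted over the peaks of that list alone, a view added after the data had been seen, the DRB change was -0.17 ± 0.21 (SE) over the inner start and -1.38 ± 0.18 over the upstream peak. The triptolide change was 0.71 ± 0.20 over the inner start and -0.05 ± 0.17 over the upstream peak. The difference between inhibitors was -0.88 ± 0.29 and -1.33 ± 0.25, and it too is a description, since it comes from the contrast that chose the gene.

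**Figure D5:**
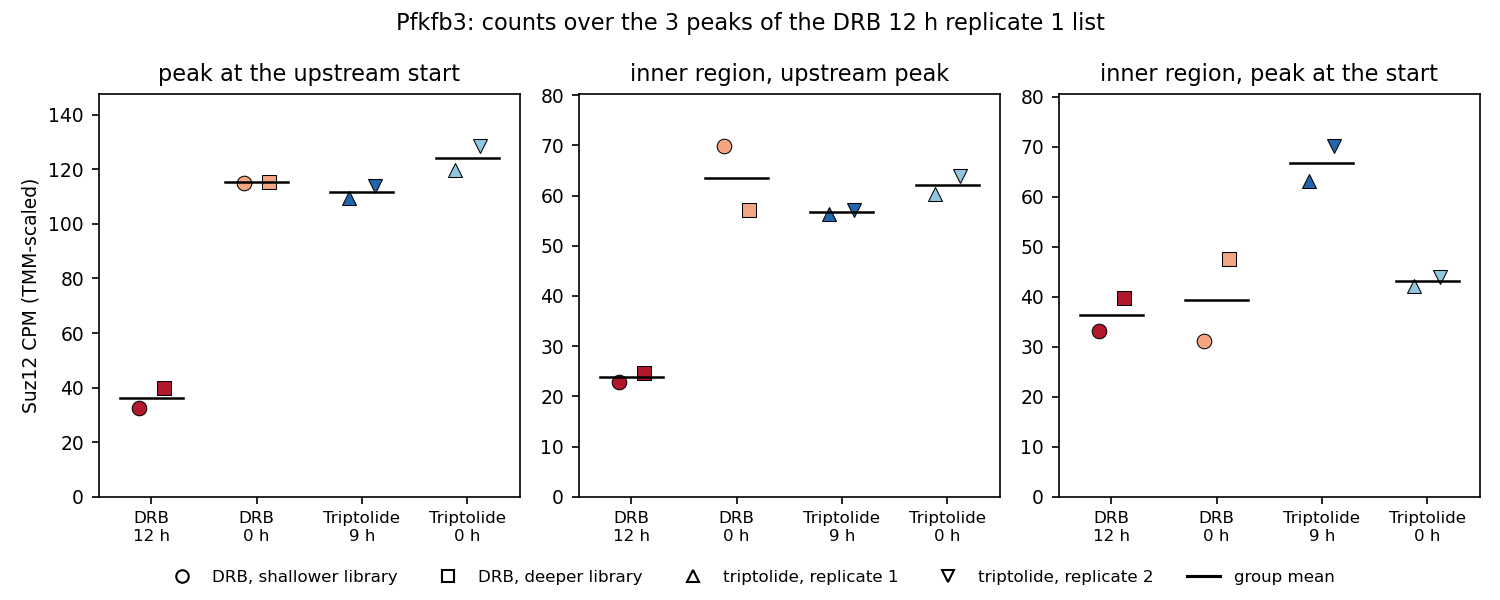
Suz12 CPM over the 3 Pfkfb3 peaks of the DRB 12 h replicate 1 list, on linear axes from 0, 1 symbol for each library and a bar at each group mean. The DRB 12 h libraries are lowest at the upstream start and at the peak above the inner start, and overlap DRB 0 h at the inner start itself, where triptolide 9 h is highest with 63.3 and 70.1 CPM.

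Pfkfb2, the form under insulin control in heart, had no peak in any untreated list. Its larger region, chr1:130716605-130718130, had a peak in all 4 treated lists. It lies inside Pfkfb2, upstream of the Pfkfb2 starts with a promoter window and downstream of the annotated upper end of the gene, chr1:130729253. It also covers the start of the neighbouring gene Yod1, which lies on the other strand and encodes a deubiquitinase. The counts of this region therefore cannot be assigned to either gene. It had 48.8 and 45.1 CPM at DRB 12 h, against 19.7 and 16.2 at DRB 0 h, and 38.9 and 42.3 CPM at triptolide 9 h, against 24.1 and 22.4 at triptolide 0 h. The lowest treated library was thus above the highest untreated one, though how many of all regions are separated in this way was not counted.

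The log2 change of this shared region was 1.42 ± 0.20 (SE) under DRB, with an edgeR adjusted p of 0.00048, and 0.80 ± 0.19 under triptolide, with an edgeR adjusted p of 0.0052. The mean of both was 1.11 ± 0.14, a fold of 2.16, with an edgeR adjusted p of 4.3e-05. A rise had in part to follow, since the region exists only through peaks of treated lists. The 1065 regions with a peak in the 4 treated lists alone had a median mean change of 0.88, and 930 of them were called higher. The DRB change exceeded the triptolide change by 0.62 ± 0.28, with an edgeR adjusted p of 0.999, so the inhibitors were not shown to differ there. Without triptolide 9 h replicate 2 the triptolide call was lost, at 0.77 ± 0.26 and an edgeR adjusted p of 0.0504.

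The smaller Pfkfb2 region, chr1:130715091-130716027, covers the start whose promoter is printed above. It had a peak in the 2 DRB 12 h lists alone. It had 18.0 and 18.3 CPM at DRB 12 h, against 13.97 and 12.94 at DRB 0 h, and 18.6 and 12.9 CPM at triptolide 9 h, against 13.2 and 14.1 at triptolide 0 h. The DRB groups did not overlap and the triptolide groups did, which with 2 libraries a group shows little by itself. The share of all regions without overlap was not counted. The log2 change was 0.45 ± 0.27 (SE) under DRB (edgeR adjusted p = 0.207), 0.21 ± 0.26 under triptolide (edgeR adjusted p = 0.547) and 0.33 ± 0.19 for the mean of both (edgeR adjusted p = 0.152).

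These values did not pass the test, on 17 to 146 reads a library. Presence of a peak under DRB and not under triptolide was thus not matched by a difference in counts that could be shown, with 0.24 ± 0.38 between the inhibitors. Scaling moved the mean change across the threshold, to 0.69 (edgeR adjusted p = 0.0082) with the regions of all 8 lists and to 0.53 (edgeR adjusted p = 0.033) with the sum of counts.

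Counted over the whole family, 3 of the 4 regions were called under DRB. The 1 higher region was the Pfkfb2 region shared with Yod1, beside 18.1% of all regions called higher, and the 2 lower regions were those of Pfkfb3, beside 19.2% called lower, which restates the choice of the gene. Under triptolide 1 of 4 was called, the same Pfkfb2 region, beside 19.3% of all regions called higher and 21.9% called lower. For the mean of both inhibitors 3 of 4 were called, the same 3, beside 28.0% of all regions called higher and 28.9% called lower. Nothing can be read from that count either, since the 2 lower regions carry the DRB changes that chose Pfkfb3 and the 1 higher region exists only through treated lists. For the difference between inhibitors, 0 of the 2 Pfkfb2 regions were called by edgeR, with 1 at an unadjusted p under 0.05, beside 193 of all 11943 regions (1.62%), and 0 by DESeq2.

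Per length of the counted peak, the order of the regions was not the same in treated and untreated cells. The counted peak is the widest of its region, from a triptolide 0 h list at Pfkfb3 and from treated lists at Pfkfb2. At DRB 12 h the group means were 30.8 CPM per kb at the Pfkfb2 region shared with Yod1, 21.8 at the inner Pfkfb3 region, 21.5 at the smaller Pfkfb2 region and 18.1 at the upstream Pfkfb3 start. At DRB 0 h they were 11.8, 41.5, 15.9 and 64.2 CPM per kb in that order of regions. At triptolide 9 h they were 26.6, 47.9, 18.6 and 60.9, against 15.2, 47.3, 16.1 and 70.2 at triptolide 0 h. By this measure the upstream Pfkfb3 start was the densest of the 4 in every group but DRB 12 h. There its group mean was the lowest, but its place depended on the length used. Over the peaks of DRB 12 h replicate 1, the DRB 12 h mean at the upstream start was 36.1 CPM on 931 bp. It was 46.8 CPM on 1488 bp at the Pfkfb2 region shared with Yod1, which is less per length. Of the 4 values per kb at DRB 12 h, the middle 2 lie within the spread of their libraries. The libraries of the upstream Pfkfb3 start also overlapped those of the inner region, so the lowest place was not settled.

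Peak presence within the lists depended on their lengths. The 4 regions had a peak in 14 of 16 region and list pairs in treated lists, and in 8 of 16 in untreated lists. With every list held to its 5116 densest peaks, 5 pairs were left in treated lists and 8 in untreated lists, all of them at Pfkfb3. The upstream start then kept a peak in 3 of 4 treated lists, the inner region in 2 of 4, those of triptolide 9 h, and both kept a peak in all 4 untreated lists. Both Pfkfb2 regions dropped out, so their peaks were among the less dense of each list.

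Pfkfb1 and Pfkfb4 had no Suz12 region in any list, treated or untreated. The nearest regions to Pfkfb1 (chrX:150587445-150643878) lay 3623.9 kb below it at Htr2c and 1500.1 kb above it at Iqsec2. Pfkfb4 (chr9:108988272-109032236) had closer neighbours, at 6.1 kb above it a region near Shisa5 with a peak in 1 DRB 12 h list, and at 33.6 kb below it a region at Col7a1 with a peak in the 4 treated lists alone. The Shisa5 region had a mean change of 0.54 ± 0.20 (SE; edgeR adjusted p = 0.032), which DESeq2 did not call (DESeq2 adjusted p = 0.081) and which was also lost on leaving out any 1 of 6 libraries (0.43 to 0.68), and the Col7a1 region had 0.11 ± 0.19 (edgeR adjusted p = 0.64). Since the deposited counts cover peaks only, no count was available over Pfkfb1 or Pfkfb4 themselves.

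The regions on either side of Pfkfb3 had smaller differences between inhibitors. Prkcq, a protein kinase C gene 298.6 kb below Pfkfb3 (chr2:11471430-11554071), had a log2 change of -0.81 ± 0.21 (SE) under DRB and -0.67 ± 0.20 under triptolide. Il15ra, a cytokine receptor gene 150.8 kb above it, had -0.58 ± 0.16 under DRB and -0.50 ± 0.16 under triptolide. Both were lower under each inhibitor by the edgeR test, with adjusted p of 0.0102 and 0.0165 at Prkcq and 0.0160 and 0.0239 at Il15ra. With scaling to the regions of all 8 lists the mean change of both inhibitors was -0.37 (edgeR adjusted p = 0.048) at Prkcq and -0.18 (edgeR adjusted p = 0.20) at Il15ra, in place of -0.74 and -0.54. Their differences between inhibitors were -0.14 ± 0.28 and -0.08 ± 0.23. On either side of Pfkfb2 (chr1:130689043-130729253), the regions of Cd55, 226.1 kb below it, and Fcmr, 148.4 kb above it, had mean changes of -0.30 ± 0.22 (edgeR adjusted p = 0.25) and -0.55 ± 0.15 (edgeR adjusted p = 0.0061), so neither was called higher. Scaling to the regions of all 8 lists brought Fcmr to -0.19 (edgeR adjusted p = 0.30).

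The 5 genes whose regions followed the upstream Pfkfb3 start most closely, by Pearson correlation of log2 CPM over the 8 libraries among 2011 gene regions of like level, were Dgat2 (0.983), Ltb4r2 (0.957), Nppc (0.951), Rtkn (0.951) and Gpr12 (0.937). The points share libraries and scaling. All 5 had a peak in every list. Their DRB changes were smaller than that of Pfkfb3, between -0.30 at Dgat2, a triglyceride synthesis enzyme, and -0.94 at Nppc, a natriuretic peptide. With scaling to the regions of all 8 lists these became 0.03 and -0.61, against -1.46 at Pfkfb3. Nppc averaged 118.3 ± 24.6 CPM in DRB 12 h libraries, against 229.6 ± 2.75 in DRB 0 h libraries, and 183.2 ± 6.95 CPM in triptolide 9 h libraries, against 242.6 ± 4.07 in triptolide 0 h libraries (SD over 2 libraries). The differences between inhibitors ran from -0.23 at Dgat2 to -0.65 at Ltb4r2, a leukotriene receptor. These are descriptions, since the 5 genes were picked for their likeness to Pfkfb3 over the same libraries.

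Lists of genes around the family were read for context, each chosen with earlier results of these data known. Of 26 glycolytic enzyme genes 10 had 12 regions, of which 7 were called higher and 0 lower for the mean of both inhibitors, with a median log2 change of 0.54 beside 0.05 over all regions. Of all regions 28.0% were called higher and 28.9% lower for that mean, and the same shares stand beside each list below. Regions are counted, not genes, and some genes hold more than 1. Of these 12 regions 10 had peaks in treated lists alone and so entered through the treated libraries, among them those of Eno3, Ldha and Pkm named here. Eno3, the muscle enolase, averaged 101.6 ± 7.96 CPM in DRB 12 h libraries, against 27.3 ± 4.36 in DRB 0 h libraries, and 99.9 ± 9.75 CPM in triptolide 9 h libraries, against 26.7 ± 3.58 in triptolide 0 h libraries (SD over 2 libraries). Its mean change was 1.92 ± 0.13 (SE, edgeR adjusted p = 1.1e-06). The other Eno3 region, also called higher, had 0.87 ± 0.20 (edgeR adjusted p = 0.0026). Ldha, which turns pyruvate into lactate, rose by 1.60 ± 0.15 (edgeR adjusted p = 5.9e-06) and Pkm, a pyruvate kinase gene, by 0.75 ± 0.14 (edgeR adjusted p = 0.00055).

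The lists of the reverse pathway and of transport also held many regions that entered through treated lists alone, 4 of 5 and 6 of 11. Of 8 gluconeogenesis genes 4 had 5 regions, with 2 higher and 0 lower and a median of 0.44. Pcx, pyruvate carboxylase, rose by 1.34 ± 0.12 (edgeR adjusted p = 4.6e-06) at 1 of its regions. Its other region, with a peak in 1 treated list, had -0.20 ± 0.28 (edgeR adjusted p = 0.55). Fbp1, the fructose bisphosphatase of liver, had -0.33 ± 0.18 (edgeR adjusted p = 0.135), or 0.03 with scaling to the regions of all 8 lists. Pck2, the mitochondrial enzyme that makes phosphoenolpyruvate, rose by 0.90 ± 0.28 (edgeR adjusted p = 0.0159), and lost the call without the deeper DRB 0 h library (0.72), triptolide 9 h replicate 2 (0.89) or triptolide 0 h replicate 1 (0.86). Both Pcx regions and the Pck2 region had a peak in 0 untreated lists. Of 12 glucose and lactate transporter genes 9 had 11 regions, with 6 higher and 1 lower and a median of 0.97. The monocarboxylate transporter genes Slc16a3 and Slc16a1 rose by 0.97 ± 0.10 and 1.29 ± 0.14, and the glucose transporter gene Slc2a3 by 1.21 ± 0.13 (edgeR adjusted p = 1.8e-05, 2.3e-05 and 1.8e-05). The Slc16a1 region had a peak in 0 untreated lists, while those of Slc16a3 and Slc2a3 had one in 3. The 1 lower region was that of Slc16a7, another monocarboxylate transporter gene, with -0.95 ± 0.13, named after its value was seen.

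Of 10 pentose phosphate genes 5 had 5 regions, with 4 higher and 0 lower and a median of 0.81. Tkt, transketolase, rose by 1.55 ± 0.15 (edgeR adjusted p = 1.1e-05), Pgls by 0.76 ± 0.14 (edgeR adjusted p = 0.00056) and Pgd by 0.82 ± 0.23 (edgeR adjusted p = 0.0081). Of the 5 regions 4, those of Tkt, Pgls and Pgd among them, had peaks in treated lists alone, so higher counts were in part built into their choice. Of 16 hypoxia-induced genes 13 had 15 regions, with 5 higher and 2 lower and a median of 0.35. The higher calls of this list were near the 28.0% of all regions. Among these, Vegfa rose by 1.03 ± 0.12 (edgeR adjusted p = 2.4e-05) and Egln1, an oxygen-sensing hydroxylase, by 0.68 ± 0.11 (edgeR adjusted p = 0.00021). Ddit4, a stress-induced inhibitor of growth signalling, fell by 0.93 ± 0.18 (edgeR adjusted p = 0.0008), in the direction of Pfkfb3. The other lower region of the list was that of Adm, a vasodilator peptide gene, with -0.44 ± 0.10, named after its value was seen.

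Ddit4 averaged 60.4 ± 21.5 CPM in DRB 12 h libraries, against 117.3 ± 47.4 in DRB 0 h libraries, and 69.0 ± 5.69 CPM in triptolide 9 h libraries, against 128.3 ± 1.80 in triptolide 0 h libraries (SD over 2 libraries). Its changes were -0.97 under DRB and -0.90 under triptolide, with a difference of -0.07 where Pfkfb3 had -1.59. Of 13 genes that signal to the family 9 had 10 regions, with 4 higher and 1 lower and a median of 0.44. Epas1, a hypoxia-inducible factor subunit, rose by 1.29 ± 0.10 (edgeR adjusted p = 1.7e-06), and Irs2, an insulin receptor substrate, by 0.89 ± 0.10 (edgeR adjusted p = 2.3e-05). Prkaca, a catalytic subunit of protein kinase A, rose by 1.44 ± 0.16 (edgeR adjusted p = 2.0e-05) at 1 of its regions. Its other region had 0.34 ± 0.20 (edgeR adjusted p = 0.16). Of the 10 regions of this list 4, both Prkaca regions among them, had peaks in treated lists alone. Higher counts were thus in part built into their choice. The 1 lower region was that of Irs1, with -0.26 ± 0.07, named after its value was seen. Over the 6 lists together 28 of 58 regions were higher and 4 lower by edgeR, 25 and 4 by DESeq2, and 44 and 2 with edgeR scaled to the regions of all 8 lists. Of the 58 regions 34 had peaks in treated lists alone, and 17 of these were higher and 0 lower, beside 2262 higher (44.2%) and 59 lower among all 5115 such regions. Of the other 24, with a peak in at least 1 untreated list, 11 were higher and 4 lower, beside 15.8% higher and 49.7% lower among all 6828 such regions. This split was made after the data had been seen. The difference between inhibitors was called at 0 of the 58 regions by edgeR and at 0 by DESeq2, and 0 had an unadjusted edgeR p under 0.05.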

How the data were processed

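Suz12 ChIP-seq of 8 libraries was used, 2 in each of 4 groups, and 12 of the 20 samples of the series were not analysed here. Reads were aligned with Bowtie and peaks called with MACS on mm10 (GRCm38), per the submitters' processing notes, which give no versions. Every deposited file lists the peaks of a single library and, per the file headers, 13 columns of raw counts; 8 columns matched the groups by name, and 5 were not used. The deposited counts are whole numbers with no normalization. Starts of the lists were read as counted from 0.

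Peaks overlapping by 1 bp were merged into 11943 regions, each with the counts over its widest peak. Counts of the 4 groups were fitted unfiltered in edgeR 4.0.16 (R 4.3.3), with its quasi-likelihood test after TMM scaling, at a Benjamini-Hochberg adjusted p under 0.05 over all regions. The mean of both inhibitors was planned as a test at Pfkfb3 and is given there as a description. CPM is per 1e6 reads counted over regions, so changes are relative and depth outside regions is unknown. With 2 libraries a group the spread is shared by all groups, and p-values measure the spread between these libraries. DESeq2 1.42.0, other scalings, filters, region definitions and left-out libraries were the alternatives. The fit was checked on simulated data.

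The members and gene lists were chosen with earlier results of these data known. Named genes follow a rule: all Pfkfb regions, the 5 most correlated gene regions, up to 3 members of each list with the lowest adjusted p for the mean of both inhibitors, and the nearest region on each side; genes outside it are marked. All 4 Pfkfb genes matched the RefSeq tables by symbol, and sequences are from RefSeq (GRCm38.p6). Motif matches are exact. The other region called for the difference between inhibitors is not reported here.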

Additional observations from a re-analysis of the deposited data

Results flagged for a closer look

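The region at the upstream start of Pfkfb3 had a difference between inhibitors, DRB change minus triptolide change, of -1.59 on the log2 scale. It stands out because the test of that difference itself passed the threshold. The same difference is the reason why the gene was chosen, so it is no independent result. Its value lay between -1.94 and -1.44 over the 23 alternatives. Without the deeper DRB 12 h library it was -1.94, and the other changes of setting kept it closer to -1.59. No group has enough libraries for a search for outlying samples.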

How the results depend on the processing

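The called Pfkfb regions were counted under each alternative. The number of regions called under DRB (3) and for the difference between inhibitors at Pfkfb2 (0) stayed within 1.5 times of itself in every alternative run. Under triptolide the count of 1 became 2 with scaling to the regions of all 8 lists, and ran from 0 to 1 over the left-out libraries, with 0 without triptolide 9 h replicate 2. In fits over the peaks of 1 list alone, added after the data were seen, it was 2 for DRB 12 h replicate 1 and 0 for DRB 0 h replicate 1 and triptolide 0 h replicates 1 and 2. For the mean of both inhibitors the count of 3 became 1 in the lists of DRB 0 h replicate 2 and triptolide 0 h replicates 1 and 2, where Pfkfb2 has no peak to test and the inner Pfkfb3 region was not called. Region and list pairs with a peak were 22, 13 with lists of equal length and 8 within 1 kb of an annotated end.

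Of 47 values 12 took the other sign under some alternative. The smaller Pfkfb2 region had -0.0536 under triptolide without triptolide 9 h replicate 1, within a left-out range up to 0.482, and -0.0448 for the difference without triptolide 9 h replicate 2, within a range up to 0.491. The peak over the inner Pfkfb3 start had a mean change of 0.27 when counted alone. With scaling to the regions of all 8 lists, the mean changes at Ltb4r2 and Rtkn were 0.0122 and 0.0707. The other 7 were the triptolide changes of both Pfkfb3 regions (up to 0.219 upstream, down to -0.160 inside) and mean changes that were not called, at Fbp1, Dgat2, Iqsec2, Cd55 and Col7a1. The cause was not tested. That scaling also moved the regions called over all, for DRB from 2156 higher and 2297 lower to 3941 and 571, and for triptolide from 2307 and 2611 to 4539 and 567. Scaling to the sum of counts left 1291 and 1324 lower calls. Without the deeper DRB 0 h library 1089 regions were higher and 1203 lower for DRB, and without a triptolide library 1299 to 1418 were higher and 1118 to 1703 lower for triptolide. The difference between inhibitors was called at 2 regions, and at 0 with counts over the widest untreated peak.

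The replicate numbers of the triptolide libraries share only a number. The deviations of the same number at 9 h and 0 h had a correlation of 0.39 over regions, from 1 pair of numbers. With a replicate block, in the triptolide libraries alone, 1 Pfkfb region was called, as without it, and 3893 regions were higher and 3767 lower, against 3136 and 3220 without the block. A block for the mean of both inhibitors was not run, because the DRB columns carry no replicate number. Leaving out lists was not run for the pairs with a peak. Depth limits the smaller Pfkfb2 region most, with 17 reads in the shallowest library.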
